A study of Mus musculus with 24 samples.

Results

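Small RNA sequencing was used to measure mature microRNAs (miRNAs) in the subcutaneous white fat of mice after feeding with a high-fat or a control diet. The comparison described here is time on the high-fat diet, week 3 against day 1, and it was made by taking the 4 libraries labelled high-fat week 3 and the 4 labelled high-fat day 1, which are 8 of the 24 libraries of the series. The other libraries were high-fat week 1 and control diet at week 3, week 1 and day 1, with 4 in each of these groups. Total RNA was purified with TRIzol, and 1 µg entered each library, per the labels' protocols. The sources used here give no strain, sex, age or make-up of the diets. Both groups compared here had the high-fat diet, so that time on the diet and age of the mice cannot be told apart without the control libraries. Whether the 4 libraries of a group are 4 animals is not said in the labels, and the p-values therefore rest on a spread between samples that could be technical.

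miRNAs are cut from hairpin precursors by Drosha and then DICER, are loaded into Argonaute proteins, and repress messenger RNAs that pair with their seed, the stretch at bases 2 to 8. The series title speaks of lower DICER in mouse fat during high-fat feeding. A hairpin gives a 5p and a 3p arm, of which one is usually kept and the other degraded. In fat, miR-143 and miR-148a are known to promote adipocyte differentiation, the let-7 family holds back proliferation and adipogenesis, and miR-126 is a marker of the endothelium. The Dlk1-Dio3 region is an imprinted locus whose maternally expressed miRNAs are abundant in embryonic and progenitor cells and fall in most adult tissues.

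The sequences of the miRNAs on which the results turn are printed first, from RefSeq on GRCm38.p6, the assembly also called mm10, with the seed in capitals. RefSeq held a sequence for 489 of the 558 miRNAs tested. miR-143-5p and miR-376c-3p are named only. Among miRNAs at a higher level at week 3, miR-143-5p had the smallest p-value and the first 4 printed the next smallest. The 5 printed after them had the smallest among those at a lower level.
miR-504-5p: aGACCCUGgucugcacucuauc
miR-139-5p: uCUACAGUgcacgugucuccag
let-7d-5p: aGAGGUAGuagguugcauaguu
miR-744-5p: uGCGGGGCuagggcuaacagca
miR-677-3p: gAAGCCAGaugccguuccugagaagg
miR-186-5p: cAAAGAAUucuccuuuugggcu
miR-450b-5p: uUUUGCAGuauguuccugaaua
miR-350-3p: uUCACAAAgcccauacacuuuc
miR-351-5p: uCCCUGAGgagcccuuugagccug

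None of these 9 seeds was shared with another of the 9. Further miRNAs are printed for the families and clusters described below, namely the let-7 members that separated the groups, 1 more member of the X chromosome cluster, 3 members of the Dlk1-Dio3 cluster, and the neighbours miR-144 and miR-451a.
let-7f-5p: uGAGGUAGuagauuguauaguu
let-7g-5p: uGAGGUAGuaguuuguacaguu
miR-322-5p: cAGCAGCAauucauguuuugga
miR-369-3p: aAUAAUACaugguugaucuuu
miR-495-3p: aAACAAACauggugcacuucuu
miR-376b-3p: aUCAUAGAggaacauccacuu
miR-144-3p: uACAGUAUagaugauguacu
miR-451a: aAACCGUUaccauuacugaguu

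The week 3 libraries held 4.72, 3.70, 11.97 and 3.11 M counts (M, mega) and the day 1 libraries 5.28, 3.90, 5.02 and 1.99 M. A count of 3, taken as the floor of detection, corresponded to 0.259 to 0.994 CPM (counts per 1 M counts, TMM-scaled throughout) at week 3 and to 0.526 to 1.48 CPM at day 1, counting error only. The mean log10 total was 6.70 ± 0.261 at week 3 and 6.58 ± 0.195 at day 1 (SD, n = 4 each), and the difference of 0.125 gave a two-sided exact permutation p of 0.543. The number of miRNA names with a count was 899 ± 93.2 at week 3 and 861 ± 62.8 at day 1 (SD, n = 4 each, exact permutation p = 0.629), and at equal depth the mean difference was -2.78 names. The 10 most abundant miRNAs held 68.3% of the counts of the 8 libraries, led by miR-148a-3p with 17.8%, miR-143-3p with 13.6%, miR-126a-3p with 8.94% and miR-99a-5p with 8.19%. The adipocyte-enriched miR-148a-3p and miR-378a-3p were therefore abundant, as the tissue label would have it, but markers of skeletal muscle and of white blood cells varied between libraries and are given with the results they accompany.

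After 3 weeks of high-fat feeding, 0 of 558 tested miRNAs passed a Benjamini-Hochberg adjusted p of 0.05 against day 1 in edgeR's quasi-likelihood test (0% called), and the lowest adjusted p was 0.0532. At an unadjusted p under 0.05, 88 miRNAs (15.8% of those tested) separated the times, of which 53 (9.5%) were at a higher and 35 (6.27%) at a lower level at week 3. The 8 libraries did not overlap between the times for 65 miRNAs (11.6%), 41 higher at week 3 (7.35%) and 24 lower (4.3%). DESeq2 called 11 miRNAs, 6 higher and 5 lower, and limma's voom, with quality weights for the libraries, called 13, 9 higher and 4 lower, with 8 in both. The fold changes were centred, with a median of 0.00 on the log2 scale over all tested miRNAs, 284 positive and 274 negative. For 280 of the 558 (50.2%) the 95% interval of the fold change lay within a 2-fold change in either direction, so that for the others a 2-fold change was not excluded at this depth and spread.

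**Figure D1:**
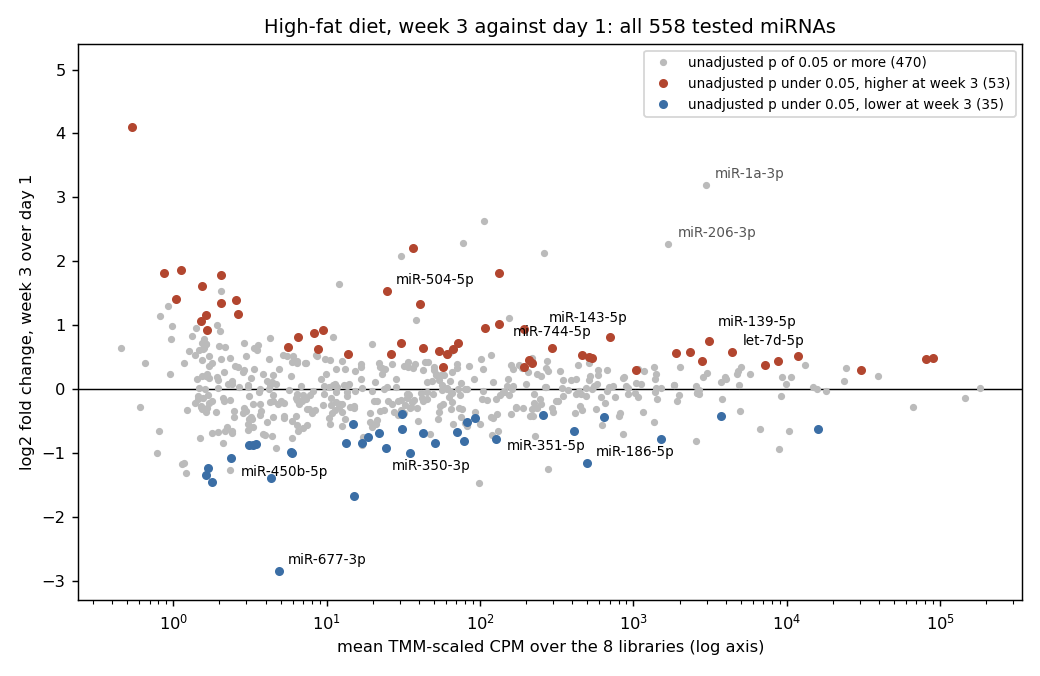
Log2 fold change of high-fat week 3 over day 1 (y axis) against the mean TMM-scaled CPM of the 8 libraries (x axis, log) for the 558 tested miRNAs. Red and blue points are the 53 higher and 35 lower at an unadjusted p under 0.05, and grey points the other 470. The top left point is miR-9-5p, which averaged 1.04 CPM at week 3 and 0.0438 CPM at day 1, close to the floor of 3 counts. Its week 3 libraries held 1, 2, 39 and 0 counts, so its week 3 mean rests mainly on replicate 3.

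miR-143-5p, the less abundant arm of the adipogenesis-promoting miR-143 hairpin, had the smallest p. Its level was 912, 844, 1044 and 785 CPM in the week 3 libraries, against 522, 642, 479 and 386 CPM in the day 1 libraries. Every week 3 library lay above every day 1 library. The log2 fold change was 0.82 ± 0.18 (SE, adjusted p = 0.0532, edgeR). The other arm, miR-143-3p, is the second most abundant miRNA of the tissue. Its mean was 138164 ± 31817 CPM at week 3 and 151981 ± 24514 CPM at day 1 (SD, n = 4 each), a log2 fold change of -0.14 ± 0.23 (SE, adjusted p = 0.819). The difference between the 2 arms was not tested. Both arms are also on the list of smooth muscle and pericyte markers, with the 2 arms of miR-145a. Of these 4, 1 had a positive and 3 a negative fold change, with a median of -0.11. The log2 fold change was -0.09 for miR-145a-5p and -0.13 for miR-145a-3p.

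miR-504-5p lies in an intron of Fgf13 (chrX:59097705-59097726, minus strand). It had 24.8, 21.5, 65.6 and 34.1 CPM at week 3, against 12.8, 12.6, 10.3 and 15.3 CPM at day 1. The groups did not overlap, although replicate 3 of week 3 stood well above its fellows. The log2 fold change was 1.54 ± 0.35 (SE, adjusted p = 0.0532), and leaving out 1 library at a time gave 1.06 to 1.66. With the mean levels of muscle and leukocyte markers as covariates it was 1.01. In the set with the smallest p-values it had the largest fold change among those at a higher level.

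miR-139-5p, carried in an intron of Pde2a (chr7:101475382-101475403, plus strand), had 3507, 3558, 4916 and 3593 CPM at week 3, against 2325, 2338, 2788 and 1768 CPM at day 1. Week 3 was higher in every library, and the lowest week 3 value stood well clear of the highest day 1 value. The log2 fold change was 0.76 ± 0.18 (SE, adjusted p = 0.0532). Its other arm, miR-139-3p, had a similar log2 fold change of 0.73 ± 0.25 (SE, adjusted p = 0.230), with 37.9 ± 9.72 CPM at week 3 and 22.8 ± 4.64 CPM at day 1 (SD, n = 4 each). Here 1 of the week 3 libraries, with 23.9 CPM, lay within the day 1 range.

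let-7d-5p, which lies in an exon of the long non-coding RNA 6720427I07Rik (chr13:48536078-48536099, minus strand), had 4208, 4928, 6196 and 5589.9 CPM at week 3, against 3132, 4076, 3529 and 3224 CPM at day 1. The groups were apart, with a log2 fold change of 0.58 ± 0.16 (SE, adjusted p = 0.143). miR-744-5p, from an intron of Map2k4 (chr11:65734799-65734820, minus strand), had 408, 328, 359 and 346 CPM at week 3, against 247, 216, 214 and 247 CPM at day 1. The spread within each time was small beside the gap, and the log2 fold change was 0.64 ± 0.19 (SE, adjusted p = 0.143).

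Among miRNAs at a lower level at week 3, miR-186-5p was the most abundant of the 5 with the smallest p. It comes from an intron of Zranb2, a gene of RNA splicing (chr3:157544285-157544306, plus strand). It had 277, 284, 384 and 284 CPM at week 3, against 673, 694, 792 and 580.4 CPM at day 1. No week 3 library reached the day 1 range, and the log2 fold change was -1.16 ± 0.32 (SE, adjusted p = 0.143). Its group means were 307 ± 51.0 CPM at week 3 and 685 ± 86.8 CPM at day 1 (SD, n = 4 each).

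miR-350-3p, from an intron of Cep170 (chr1:176772342-176772363, minus strand), had 66.0, 54.2, 59.4 and 46.7 CPM at week 3, against 93.0, 83.7, 108 and 115 CPM at day 1. The groups were apart, with a log2 fold change of -0.82 ± 0.24 (SE, adjusted p = 0.143). The other arm, miR-350-5p, was also at a lower level, with a log2 fold change of -0.54 (unadjusted p = 0.0385). miR-677-3p, from an intron of Atp5b, which encodes a subunit of mitochondrial ATP synthase (chr10:128085335-128085360, plus strand), had 0.974, 2.12, 0.432 and 1.66 CPM at week 3, against 13.8, 0.743, 7.51 and 11.8 CPM at day 1. The times overlapped, because day 1 replicate 2 held only 3 counts of it. The log2 fold change was -2.85 ± 0.77 (SE, adjusted p = 0.143), the largest among the 10 miRNAs with the smallest p in either direction and the one with the fewest counts.

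**Figure D2:**
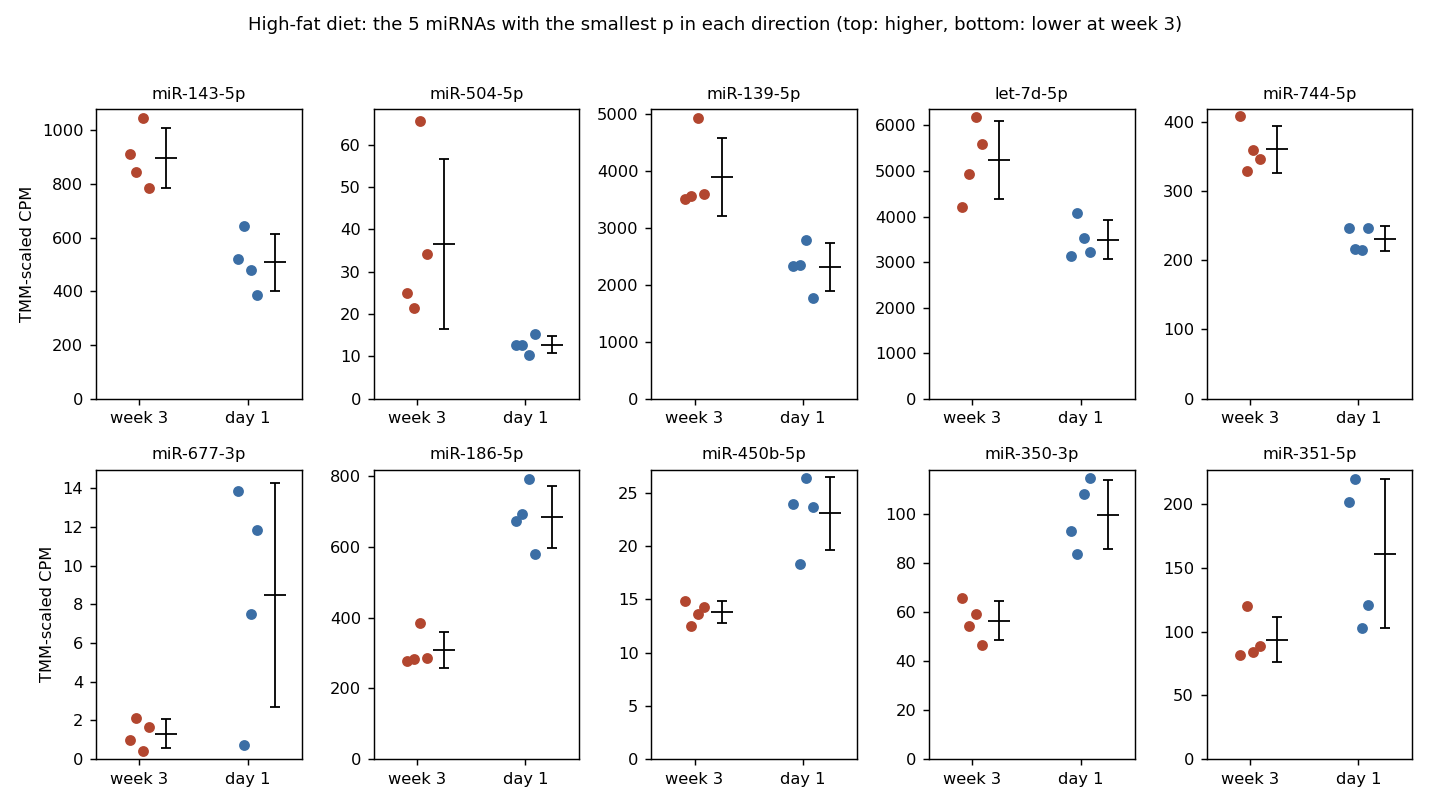
TMM-scaled CPM (y axis, from 0) in each of the 4 week 3 and 4 day 1 libraries of the high-fat diet (x axis, points) for the 5 miRNAs with the smallest p in each direction, with the mean and SD (cross and bar) beside the points. The times do not overlap for 8 of the 10, the exceptions being miR-677-3p and miR-351-5p.

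Both remaining miRNAs of that set, miR-450b-5p and miR-351-5p, belong to the cluster on the X chromosome that also holds miR-322, miR-503, miR-542 and miR-450a and lies between genes. miR-450b-5p (chrX:53048044-53048065, minus strand) had 14.9, 12.5, 13.6 and 14.3 CPM at week 3, against 24, 18.3, 26.4 and 23.7 CPM at day 1. The times did not overlap, and the log2 fold change was -0.74 ± 0.22 (SE, adjusted p = 0.143). miR-351-5p (chrX:53053315-53053338, minus strand) had 81.8, 119.7, 84.3 and 88.5 CPM at week 3, against 202, 220.1, 103 and 121 CPM at day 1, a log2 fold change of -0.79 ± 0.24 (SE, adjusted p = 0.143). The upper week 3 library, replicate 2, lay within the day 1 range. miR-322-5p (chrX:53054306-53054327, minus strand), the mouse counterpart of human miR-424, had 230.4, 234, 229 and 188 CPM at week 3, against 288, 301, 308 and 269 CPM at day 1. Its groups were apart, with a log2 fold change of -0.40 ± 0.17 (SE, adjusted p = 0.263). The other arm, miR-322-3p, averaged 273 CPM at week 3 and 267 CPM at day 1. It overlapped between the times, with a log2 fold change of 0.03 ± 0.27 (SE, adjusted p = 0.968).

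Of the 13 names of the X chromosome cluster, 11 were tested, 9 had a negative and 2 a positive fold change, and the median log2 fold change was -0.16, against 0.00 over all tested miRNAs. With 1 library left out that median was as low as -0.44, without week 3 replicate 3. An unadjusted p under 0.05 was reached by 4 of the 11, all at a lower level, against 6.27% of all tested miRNAs. The 2 with groups apart were miR-450b-5p and miR-322-5p, against 4.3% of all tested. Other miRNAs share seeds with this cluster. Those with the seed of miR-351-5p, CCCUGAG, had log2 fold changes of -0.19 (miR-125a-5p) and -0.01 (miR-125b-5p), and the ones with the miR-322-5p seed, AGCAGCA, ran from -0.38 (miR-15b-5p) to 0.34 (miR-195a-5p). These miRNAs lie at other loci.

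The let-7 family shares the seed GAGGUAG. Of its 22 names 21 were tested, 17 had a positive and 4 a negative fold change, and the median log2 fold change was 0.23. The 9 tested arms that carry the seed, miR-98-5p included, all had a positive fold change, from 0.04 ± 0.16 (SE) for miR-98-5p to 0.58 ± 0.16 (SE) for let-7d-5p. All 9 were also positive with RLE size factors, whereas miR-98-5p was at -0.05 with library totals alone and -0.00367 with TMM factors computed without the 5 most abundant miRNAs, and the other 8 were positive in both. An unadjusted p under 0.05 was reached by 4 of 21, all at a higher level, against 9.5% of all tested. let-7g-5p, the second most abundant member and located in an intron of Wdr82 (chr9:106178846-106178867, plus strand), had 36861, 33296, 29316 and 35159 CPM at week 3, against 29147, 26938, 25584 and 27579.9 CPM at day 1. The times were separated by a narrow gap, and the log2 fold change was 0.30 ± 0.12 (SE, adjusted p = 0.250).

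let-7f-5p had 9929, 9231, 9925 and 11075 CPM at week 3, against 7257, 7116, 6019 and 9079 CPM at day 1, again without overlap. Its log2 fold change was 0.45 ± 0.18 (SE, adjusted p = 0.235). It is encoded by 2 hairpins, in the long non-coding RNA of let-7d on chromosome 13 and in an intron of Huwe1 on chromosome X, which the counts do not separate. let-7i-5p, the most abundant member with 3.69% of the counts, had 42084 ± 8413 CPM at week 3 and 36421 ± 6549 CPM at day 1 (SD, n = 4 each), with overlapping groups and a log2 fold change of 0.21 ± 0.17 (SE, adjusted p = 0.522), which ran from 0.03 to 0.29 with 1 library left out. The median of the family was 0.22 with RLE size factors and 0.14 with library totals alone, and 0.13 without day 1 replicate 3, so its sign was the same in these settings. Family members differ by few bases, so counts may pass between them.

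The Dlk1-Dio3 cluster on chromosome 12 was the largest list. Of its 110 names 73 were tested, 57 had a negative and 16 a positive fold change, with a median log2 fold change of -0.30. An unadjusted p under 0.05 was reached by 10, all at a lower level at week 3, and the times did not overlap for 7, also all lower. That is 10 of 73 against 6.27% and 7 of 73 against 4.3% of all tested miRNAs. The miRNAs of this cluster are copied from 1 strand of 1 locus, so they are not independent of one another. The median stayed negative under each scaling, down to -0.41 with library totals alone. It was -0.47 without day 1 replicate 3, and -0.70 with 70 of 73 negative when the mean levels of muscle and leukocyte markers, described below, were covariates.

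miR-369-3p, in an intron of the long non-coding RNA Mirg (chr12:109743466-109743486, plus strand), had 17.3, 15.9, 16.3 and 18.2 CPM at week 3, against 35.4, 42.1, 26.8 and 23.7 CPM at day 1. The week 3 libraries lay close together and below all day 1 libraries, with a log2 fold change of -0.92 ± 0.29 (SE, adjusted p = 0.143). miR-495-3p (chr12:109718795-109718816, plus strand) had 28.5, 37.2, 40.2 and 40.8 CPM at week 3, against 69.7, 79.0, 58.8 and 54.7 CPM at day 1, a log2 fold change of -0.84 ± 0.30 (SE, adjusted p = 0.235). miR-376b-3p (chr12:109723508-109723528, plus strand) had 17.8, 26.0, 25.2 and 23.9 CPM at week 3, against 45.2, 56.4, 47.4 and 36.5 CPM at day 1, a log2 fold change of -0.9998 ± 0.38 (SE, adjusted p = 0.235). In both the groups were apart. miR-376c-3p averaged 9.66 ± 0.871 CPM at week 3 and 17.2 ± 4.26 CPM at day 1 (SD, n = 4 each), with groups apart and a log2 fold change of -0.84 ± 0.28 (SE, adjusted p = 0.202). The most abundant members, miR-379-5p and miR-381-3p, averaged 1519 and 1145 CPM at week 3, against 1501 and 1085 CPM at day 1. Their groups overlapped, with log2 fold changes of 0.02 ± 0.32 and 0.08 ± 0.45 (SE). Summed over the cluster, levels also overlapped, at 5678 to 7396 CPM at week 3 and 6204 to 7713 CPM at day 1.

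**Figure D3:**
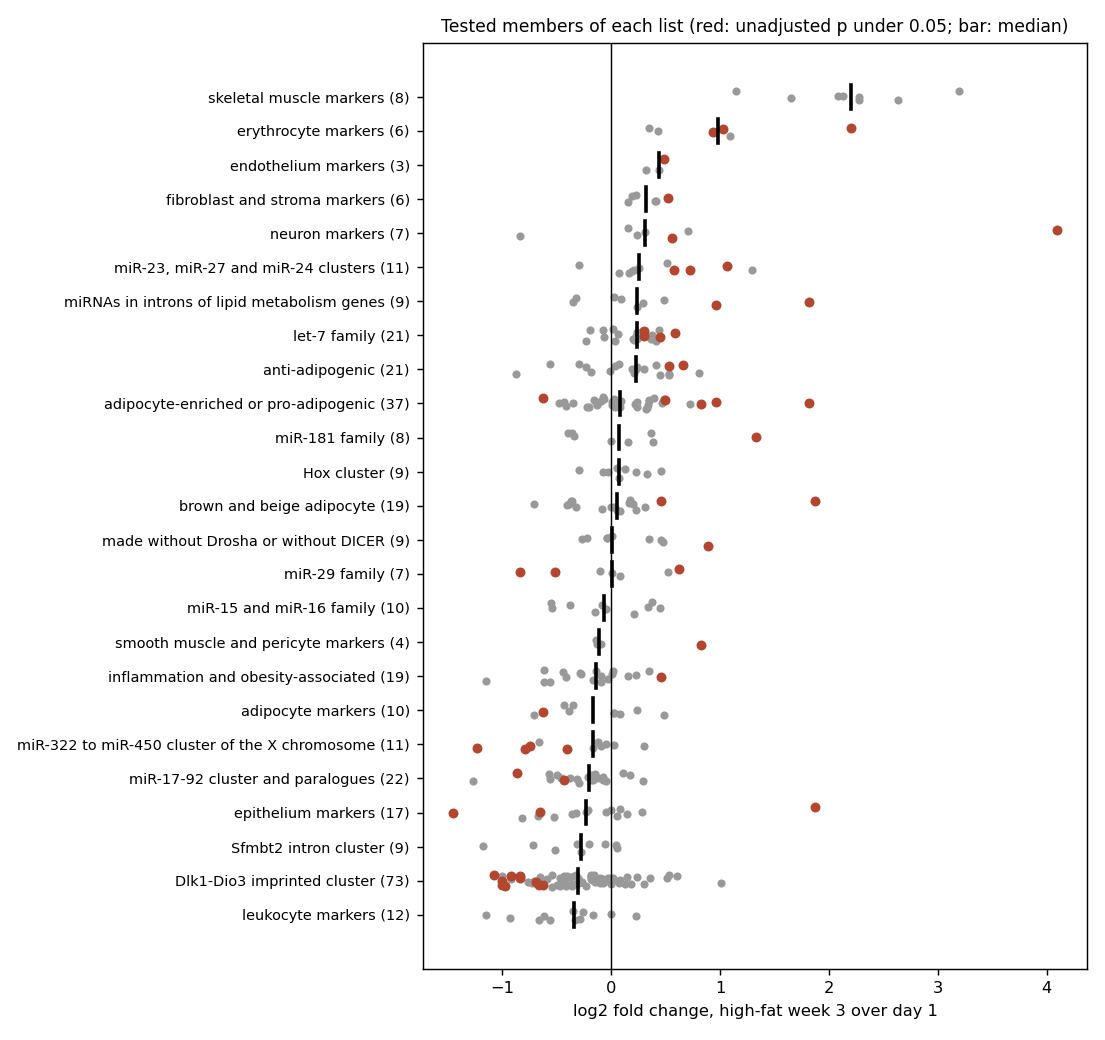
Log2 fold change of high-fat week 3 over day 1 (x axis) for the tested members of each list with 3 or more (y axis, number of members in brackets). Points are miRNAs, red at an unadjusted p under 0.05, and the black bar is the median of the list, which runs from 2.20 for skeletal muscle markers to -0.34 for leukocyte markers.

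Further lists were described in the same way. The clusters of miR-23, miR-27 and miR-24, whose miR-27 members are known to restrain adipogenesis, had 10 positive and 1 negative of 11, a median log2 fold change of 0.26 (0.07 without week 3 replicate 3) and 3 members higher at an unadjusted p under 0.05, against 9.5% of all tested. Among them miR-24-1-5p had 78.7, 66.6, 93.4 and 121 CPM at week 3, against 43.5, 47.0, 77.7 and 49.8 CPM at day 1, a log2 fold change of 0.72 ± 0.22 (SE, adjusted p = 0.143) with overlap of replicate 3 of day 1. The miR-17-92 cluster, which promotes proliferation, and its paralogues had 19 negative and 3 positive of 22 and a median of -0.20, which was 0.04 with the marker covariates, with 2 members lower at an unadjusted p under 0.05, against 6.27% of all tested. The list of adipocyte-enriched or pro-adipogenic miRNAs had 24 positive and 13 negative of 37 (64.9% positive, against 50.9% of all tested) and a median of 0.08. At an unadjusted p under 0.05, 4 were higher, against 9.5% of all tested, and 1 was lower, against 6.27%.

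Within that list, miR-335-3p, from an intron of Mest, an imprinted gene that marks fat expansion (chr6:30741354-30741375, plus strand), had 156, 80.4, 435 and 151 CPM at week 3, against 59.6, 87.1, 40.1 and 47.3 CPM at day 1. The ranges overlapped through week 3 replicate 2 and day 1 replicate 2, and replicate 3 of week 3 was far above the others. The log2 fold change was 1.81 ± 0.56 (SE, adjusted p = 0.143), and 1.13 without week 3 replicate 3. miR-210-3p, the miRNA induced by hypoxia, had 657, 463, 682 and 585 CPM at week 3, against 441, 391, 423 and 436 CPM at day 1. All week 3 libraries were higher, with a log2 fold change of 0.50 ± 0.19 (SE, adjusted p = 0.235).

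miR-26b-5p, which promotes differentiation of human preadipocytes and lies in an intron of Ctdsp1 (chr1:74394324-74394344, plus strand), was the 1 member of that list lower at an unadjusted p under 0.05. It had 14109, 11893, 12401 and 11739 CPM at week 3, against 15470.4, 17264, 20750.1 and 23959 CPM at day 1. All week 3 libraries were lower, with a log2 fold change of -0.63 ± 0.24 (SE, adjusted p = 0.235). It was also the 1 adipocyte marker to reach that p; the 10 tested adipocyte markers had 5 positive and 5 negative fold changes and a median of -0.16.

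The most abundant miRNA, miR-148a-3p (chr6:51269829-51269850, minus strand, intergenic), was at 182037 ± 25094 CPM at week 3 and 178821 ± 38859.7 CPM at day 1 (SD, n = 4 each). Its log2 fold change was 0.03 ± 0.24 (SE), with a 95% interval of -0.48 to 0.53. miR-21a-5p, which accumulates in inflamed and fibrotic tissue, was at 60547 ± 4606 CPM at week 3 and 73189 ± 10972 CPM at day 1 (SD, n = 4 each), a log2 fold change of -0.27 ± 0.18 (SE, adjusted p = 0.425). Of the 10 most abundant, 3 had groups apart, against 11.6% of all tested, namely miR-126a-3p, miR-99a-5p and let-7g-5p. miR-99a-5p (chr16:77598940-77598961, plus strand, intron of Mir99ahg) had 94901, 83155, 96563 and 99232 CPM at week 3, against 66486, 73579, 74396 and 53736 CPM at day 1, a log2 fold change of 0.48 ± 0.20 (SE, adjusted p = 0.254). Without day 1 replicate 4 it was 0.34 (unadjusted p = 0.115, edgeR).

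Both arms were tested for 167 hairpins, and in 117 of these (70.1%) they had the same sign. Across hairpins, which are not independent replicates, the fold changes of the 5p and 3p arms had a Pearson r of 0.529 and a Spearman rho of 0.513, given as a description. In 11 hairpins both arms had an unadjusted p under 0.05, and in 10 of these the sign was shared, among them let-7d, miR-139, miR-335, miR-350 and miR-351. The exception was miR-29c, named after its values were seen: its 5p arm was at 80.4 ± 20.8 CPM at week 3 and 52.2 ± 8.22 CPM at day 1, and its 3p arm at 67.3 ± 13.6 CPM at week 3 and 96.2 ± 14.1 CPM at day 1 (SD, n = 4 each). The log2 fold changes were 0.62 ± 0.28 and -0.51 ± 0.24 (SE; adjusted p = 0.296 and 0.299).

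Markers of other cell types were not at one level in the 8 libraries. In bulk tissue, fewer cells of a type and less RNA per cell cannot be told apart. All 8 tested skeletal muscle markers had a positive fold change, with a median of 2.20, and none had an unadjusted p under 0.05. miR-1a-3p, specific to heart and skeletal muscle, had 4783, 738, 9058 and 6742 CPM at week 3, against 575, 18.8, 13.1 and 1733 CPM at day 1. The times overlapped and 2 day 1 libraries were nearly without it, so the log2 fold change of 3.19 ± 1.72 (SE, adjusted p = 0.358) had an interval from -0.42 to 6.80. Summed over the list, muscle markers ranged from 1277 to 17392 CPM at week 3 and from 24.5 to 3115 CPM at day 1. Their part in the results above was not tested, other than by a fit that took the mean muscle and mean leukocyte marker levels as covariates. It called 8 miRNAs, among them miR-143-5p, miR-139-5p, miR-677-3p and 3 of the Dlk1-Dio3 miRNAs described above (miR-369-3p, miR-376c-3p and miR-495-3p). Each of these had a larger fold change in that fit than in the main one. Others described above had a smaller one. The log2 fold change with covariates was -0.90 for miR-186-5p and -0.60 for miR-350-3p. For miR-26b-5p it was -0.42 (unadjusted p = 0.0935, edgeR) and for miR-322-5p -0.26 (unadjusted p = 0.145, edgeR).

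Leukocyte markers had 11 negative and 1 positive fold change of 12, with a median of -0.34, and none at an unadjusted p under 0.05. miR-142a-3p, found in all blood cell lineages, averaged 6079.6 ± 1129 CPM at week 3 and 11601 ± 5010.4 CPM at day 1 (SD, n = 4 each), with overlap and a log2 fold change of -0.93 ± 0.60 (SE, adjusted p = 0.417). The summed leukocyte markers ranged from 14250 to 29025 CPM at week 3 and from 23976 to 52217 CPM at day 1. Endothelial miR-126a-3p (chr2:26591402-26591423, plus strand, within Egfl7) had 111785, 99349, 94057 and 113068 CPM at week 3, against 73282, 80354, 93769 and 51948 CPM at day 1. The groups met without overlap, and the log2 fold change was 0.48 ± 0.15 (SE, adjusted p = 0.156), and 0.30 without day 1 replicate 4. All 3 tested endothelial markers and all 6 fibroblast markers had positive fold changes, with medians of 0.44 and 0.32.

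Erythrocyte markers were all positive, 6 of 6, with a median log2 fold change of 0.98, and 3 had groups apart and an unadjusted p under 0.05 (all higher), against 7.35% and 9.5% of all tested. miR-144-3p (chr11:78073047-78073066, plus strand), which acts in red cell maturation, had 245, 195, 359 and 211 CPM at week 3, against 155, 139.9, 177 and 54.2 CPM at day 1. The groups were apart, with a log2 fold change of 0.94 ± 0.34 (SE, adjusted p = 0.235). miR-451a (chr11:78073186-78073207, plus strand), its neighbour in the same transcript, had 2385, 1227, 3124 and 2246 CPM at week 3, against 1669, 1487, 2723 and 1176 CPM at day 1, which overlapped. Its log2 fold change was 0.35 ± 0.30 (SE, adjusted p = 0.536), and 0.13 to 0.60 with 1 library left out. miR-486a-5p, also made in muscle, had 236, 110.2, 160.1 and 209 CPM at week 3, against 104, 86.4, 83.7 and 76.9 CPM at day 1, with groups apart and a log2 fold change of 1.02 ± 0.44 (SE, adjusted p = 0.280). With the marker covariates miR-486a-5p was at 0.18 and the erythrocyte median at 0.52, with 5 of 6 positive. The arms of miR-486a and miR-486b are near-identical and may share reads.

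miR-451a is cut by Argonaute 2 without DICER, whereas miR-144 and miR-486 need DICER, and the ratio was formed because of the series title. Set against the geometric mean of the miR-144 and miR-486 arms, miR-451a had a log2 ratio of 4.48, 4.37, 4.91 and 4.56 at week 3, against 5.11, 5.31, 6.31 and 4.93 at day 1. The arm miR-486b-3p had no counts and was left out. The times did not overlap by a narrow margin, with means of 4.58 ± 0.233 at week 3 and 5.42 ± 0.620 at day 1 (SD, n = 4 each). The difference of -0.83 gave a two-sided exact permutation p of 0.0286, the smallest that 4 against 4 libraries allow, in 1 of 3 such tests, and 0.0857 when adjusted over the 3 by Benjamini-Hochberg. Against the miR-144 arms alone the difference was -0.38 (exact permutation p = 0.229), and the miR-486 arms vary with muscle. The ratio was not formed for the control libraries, so whether its change belonged to the high-fat diet was not tested. On the control diet, the log2 fold change was 0.04 ± 0.30 for miR-451a, 0.61 ± 0.33 for miR-144-3p and 0.94 ± 0.44 for miR-486a-5p (SE). Among all 9 tested miRNAs of the list made without Drosha or without DICER, 5 had a positive and 4 a negative fold change, with a median of 0.01 that turned to -0.01 with RLE size factors and -0.07 with library totals alone.

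**Figure D4:**
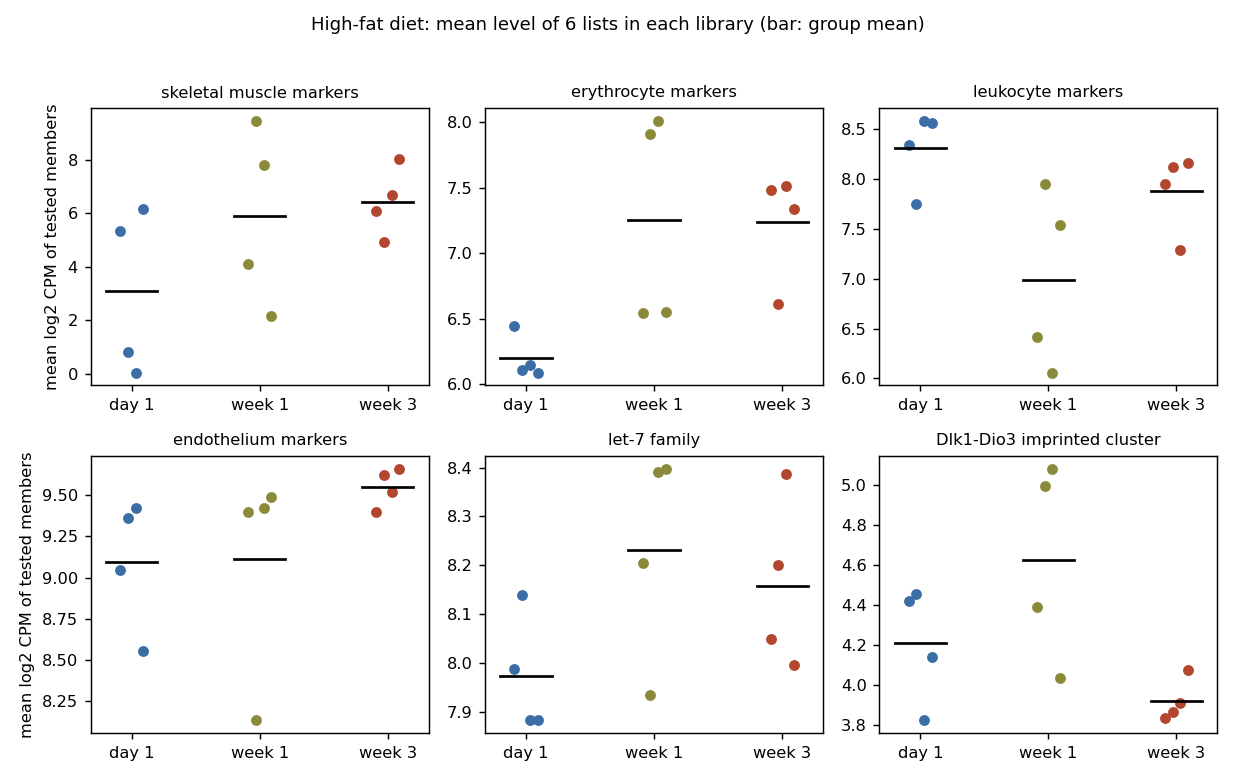
Mean log2 CPM of the tested members (y axis) in each library of the high-fat diet at day 1, week 1 and week 3 (x axis) for 6 lists, 1 point per library and a bar at the group mean. Week 3 and day 1 do not overlap for erythrocyte markers, which lie between 6.61 and 7.52 at week 3 and between 6.09 and 6.44 at day 1, whereas week 1 holds the widest spread of muscle markers, 2.14 to 9.44.

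The week 1 libraries of the high-fat diet were set beside those of week 3. Week 3 over day 1 and week 1 over day 1 share the day 1 libraries, from which the miRNAs named here were also chosen, so a likeness between them is partly built in. Against day 1, the log2 fold change at week 1 was 0.76 for miR-143-5p, 0.58 for let-7d-5p, -1.01 for miR-186-5p, -0.80 for miR-450b-5p and -0.66 for miR-350-3p. For the same miRNAs in the same order, week 3 over week 1 was 0.06, 0.00, -0.15, 0.05 and -0.16. For miR-139-5p the week 1 value was 0.32, and for miR-351-5p it was -0.39. The Dlk1-Dio3 cluster took another course: its median was 0.48 for week 1 over day 1 and -0.76 for week 3 over week 1. As the plot of list levels by library shows, its mean level at week 1 was spread from 4.04 to 5.08 on the log2 scale, wider than the 3.84 to 4.07 of week 3. Leukocyte markers were on average lowest in the week 1 libraries, with a median log2 fold change against day 1 of -1.18.

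Whether these differences belonged to high-fat feeding was tested as the change over time on the high-fat diet minus that on the control diet. In edgeR's quasi-likelihood test 0 of 558 miRNAs passed (0%), 11 (1.97%) had an unadjusted p under 0.05, and the lowest adjusted p was 0.991. DESeq2 and voom also called 0, and 13 (DESeq2) and 36 (voom) reached an unadjusted p under 0.05. In the control libraries alone, 2 miRNAs passed for week 3 against day 1 (0.358%), both lower: miR-322-5p, with 223 ± 62.1 CPM at week 3 and 385 ± 62.7 CPM at day 1, and miR-452-5p, with 4.04 ± 0.671 CPM at week 3 and 9.63 ± 2.47 CPM at day 1 (SD, n = 4 each, adjusted p = 0.0288 for both). Their log2 fold changes were -0.79 ± 0.17 and -1.24 ± 0.26 (SE). The control count was 6 with DESeq2, 4 with voom and 14 with the marker covariates (1 higher and 13 lower). It was 0 to 4 with 1 control library left out, namely 4 without day 1 replicate 1, 2 without day 1 replicate 4, 1 without week 3 replicate 3 or 4, and 0 without each of the others.

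The high-fat and control fold changes come from separate libraries. Their signs were the same for 407 of 558 miRNAs (72.9%), and for 80 of the 88 (90.9%) with an unadjusted p under 0.05 on the high-fat diet, of which 33 also had an unadjusted p under 0.05 on the control diet in the same direction. All 10 miRNAs with the smallest p kept their sign on the control diet. The log2 fold change was 0.82 ± 0.18 on the high-fat and 0.51 ± 0.18 on the control diet for miR-143-5p, 1.54 ± 0.35 and 1.10 ± 0.34 for miR-504-5p, and 0.76 ± 0.18 and 0.52 ± 0.18 for miR-139-5p (SE). For miR-350-3p it was -0.82 ± 0.24 on the high-fat and -0.84 ± 0.24 on the control diet, and for miR-369-3p -0.92 ± 0.29 and -1.21 ± 0.28 (SE).

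Some list medians were near one another, with 0.23 on the high-fat and 0.24 on the control diet for let-7, -0.30 and -0.28 for Dlk1-Dio3, 0.98 and 0.78 for erythrocyte markers and 2.20 and 2.10 for muscle markers. Others were not. The leukocyte median was -0.34 on the high-fat and -0.03 on the control diet, that of the X chromosome cluster -0.16 on the high-fat and -0.37 on the control diet, and that of the miR-29 family 0.01 on the high-fat and -0.39 on the control diet. The sign of the median differed for the Sfmbt2 intron cluster, at -0.28 on the high-fat and 0.20 on the control diet (2 of 9 positive on the high-fat and 8 of 9 on the control diet), and for the miR-17-92 list, at -0.20 on the high-fat and 0.05 on the control diet (19 of 22 negative on the high-fat and 10 of 22 on the control diet). The differences between diets in these medians were not tested. Averaged over both diets, a contrast added after the data were seen, week 3 differed from day 1 for 40 of 558 miRNAs (7.17%), of which 19 rose and 21 fell in edgeR's quasi-likelihood test. The high-fat libraries are part of this contrast, so the presence of all 10 miRNAs with the smallest p on the high-fat diet among the 40 is largely built in. Of the 21 tested let-7 names, 4 were among the 40 and rose, against 19 of 558 over all tested. Among those that fell were 8 of 73 tested Dlk1-Dio3 miRNAs and 3 of 11 of the X chromosome cluster, against 21 of 558. These counts rest in part on the same high-fat libraries and include some of those 10 miRNAs, so they are partly built in as well.

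**Figure D5:**
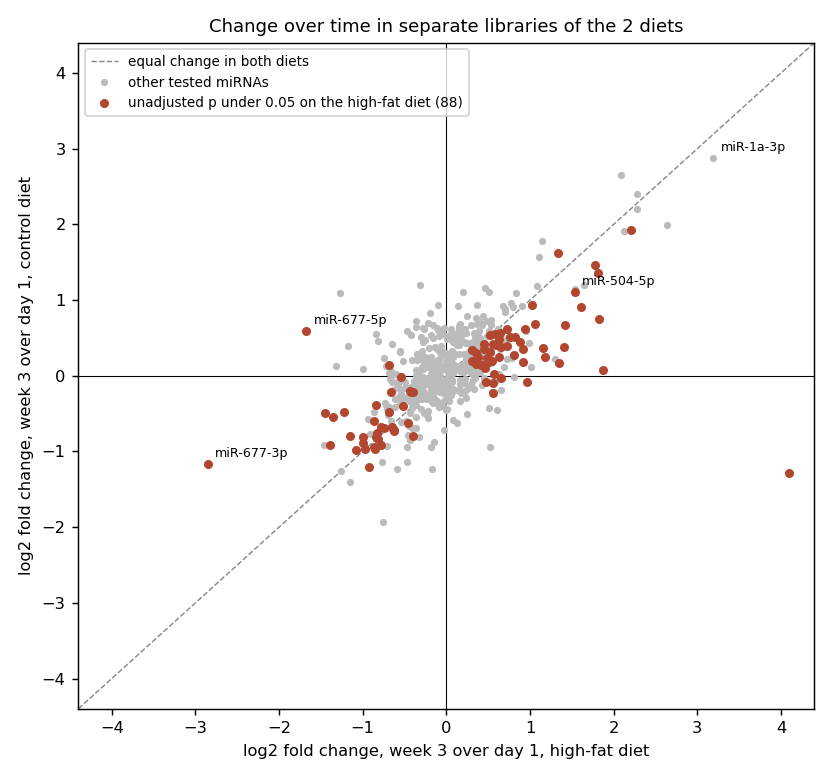
Log2 fold change of week 3 over day 1 on the high-fat diet (x axis) against that on the control diet (y axis) for the 558 tested miRNAs, with the line of equal change dashed. Of the 88 red points, which have an unadjusted p under 0.05 on the high-fat diet, 80 have the same sign on both axes.

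The largest differences between the diets, by p, included miR-452-5p and miR-677-5p. miR-452-5p, from an intron of Gabre (chrX:72262271-72262292, minus strand), had a log2 fold change of -0.18 ± 0.27 on the high-fat and -1.24 ± 0.26 on the control diet, a difference of 1.06 ± 0.37 (SE, unadjusted p = 0.00920, adjusted p = 0.991). Its high-fat levels of 9.01, 4.51, 5.18 and 7.29 CPM at week 3 and 8.76, 4.95, 7.94 and 7.40 CPM at day 1 overlapped throughout. miR-677-5p had -1.68 ± 0.61 on the high-fat and 0.59 ± 0.58 on the control diet, a difference of -2.27 ± 0.84 (SE, unadjusted p = 0.0137, adjusted p = 0.991). It had 10.7, 6.11, 6.05 and 4.97 CPM at week 3, against 9.81, 5.45, 10.9 and 67.1 CPM at day 1, and without day 1 replicate 4 its high-fat fold change was -0.38. For the abundant miR-99a-5p, the log2 fold change was 0.48 ± 0.20 on the high-fat and -0.08 ± 0.20 on the control diet, a difference of 0.56 ± 0.28 (SE, unadjusted p = 0.0555, adjusted p = 0.991).

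Base composition differed with direction. The median GC content of the mature sequence was 50% for the miRNAs at a higher level at an unadjusted p under 0.05 (45 of 53 with a RefSeq sequence), 40.9% for those at a lower level (34 of 35) and 47.8% for all tested (489 of 558). Across the 489 miRNAs, Spearman's rho between GC content and log2 fold change was 0.19 on the high-fat and 0.32 on the control diet, given as a description. With a correction for GC content the fit called 0 miRNAs and 82 reached an unadjusted p under 0.05, against 0 and 80 in the uncorrected fit to the same 489.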

How the data were processed

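The deposited table held raw read counts for 1907 mature miRNA names, 1 column per library, made by the authors with FastQC, Trim Galore, Bowtie2 and featureCounts on mm10, per the submitters' processing notes. Versions, the miRNA annotation and the handling of reads with several matches are not in the sources used here, so counts of multi-copy and near-identical miRNAs are uncertain. Of the names, 440 had no count, and filterByExpr (minimum count 10, minimum total 15) kept 558, leaving out 0.0179% of counts. All 24 libraries entered 1 cell-means model of the 6 groups in edgeR 4.0.16 (R 4.3.3, TMM, robust quasi-likelihood, Benjamini-Hochberg). The biological coefficient of variation was 0.359. No 2 libraries of a group agreed within sampling noise, checked in each of the 6 groups. Totals, numbers of names and the ratio went through exact permutation tests, two-sided, in SciPy 1.17.1, the ratio with a pseudocount of 0.5 counts. Positions and sequences come from RefSeq GRCm38.p6 and GENCODE gene models. Alternatives included DESeq2 1.42.0, limma 3.58.1 voom, other scalings and filters, fewer libraries, covariates and a replicate block. The scripts were tested on simulated data. The rule for naming took the 5 miRNAs of smallest p on either side, the 10 most abundant, abundant list members and the strongest differences between diets; the text gives a selection, with further list members added after their values were seen. The miRNA lists and comparisons were chosen with earlier results of these data known. Intervals of fold changes come from the edgeR fit and include the spread between libraries, whereas floors cover counting error only.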

Additional observations from a re-analysis of the deposited data

Results flagged for a closer look

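In each group of 4 libraries, the gap of the highest or lowest library to its nearest fellow was compared with the range. Of 100 groups examined, 8 had 1 library standing apart, and chance gives about 1 in 20. Week 3 replicate 3 stood above the others for miR-139-5p (4916 CPM, others 3507 to 3593) and miR-186-5p (384 CPM, others 277 to 284), and below them for miR-378a-3p (9839 CPM, others 16216 to 17072). Week 3 replicate 4 stood above for miR-206-3p, a muscle miRNA (9261 CPM, others 282 to 833), whose log2 fold change was 2.27 with it and 0.10 without it, and below for miR-322-5p (188 CPM, others 229 to 234). Day 1 replicate 4 stood above for miR-677-5p (67.1 CPM, others 5.45 to 10.9). Day 1 replicate 3 stood above for miR-24-2-5p (2628 CPM, others 1543 to 1695). Day 1 replicate 2 stood below for miR-92a-3p (3030.2 CPM, others 3725 to 3831).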

How the results depend on the processing

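The count of 0 miRNAs called at week 3 against day 1 was 0 with RLE size factors, library totals alone, RefSeq miRNAs only and a GC correction. It was 3 with TMM factors computed without the 5 most abundant miRNAs, with a mean CPM of at least 10 and without the 3 libraries highest in muscle markers (each time miR-143-5p, miR-139-5p and miR-504-5p). The 3 libraries highest in muscle markers were picked from the whole series, and none was among the 8 compared. Week 3 replicate 4, the highest of the 8 (mean log2 CPM of muscle markers 8.02), stayed in. The part of muscle in the comparison was therefore not tested by leaving them out. The count was 1 without a filter (miR-504-5p) and 1 with only the 8 libraries (miR-186-5p). It was 5 without the week 1 libraries, 8 with muscle and leukocyte means as covariates, 11 with DESeq2 and 13 with limma-voom. Leaving out each library gave 0 to 2: 1 without week 3 replicate 2 and 2 without day 1 replicate 2. The difference between diets gave 0 in all settings. With the replicate block the count was 0 (lowest adjusted p 0.0774), and the control count of 2 was 0. That count was also 0 without a filter, with only the 8 control libraries and with a GC correction, 1 with a mean CPM of at least 10, 3 with RefSeq miRNAs only, 6 without the week 1 libraries, and 2 in the other scalings. The replicate numbers are not stated to pair libraries, so they were not taken as pairs in the main fit. Same-numbered libraries correlated at -0.0526, 0.223, -0.136 and 0.314, and unlike-numbered ones at -0.350 to 0.344. These values do not settle whether the numbers are pairs. The difference in names with a count was -2.78 at equal depth, and -8.0 to 63.7 over left-out libraries; that in log10 total was 5.99e-05 to 0.195. The ratio difference was -0.79 with a pseudocount of 5 and -0.38 against miR-144 alone, and in neither was the exact permutation p under 0.05. It was -0.997 to -0.534 over left-out libraries, where 3 against 4 cannot pass. Fold changes near 0 changed sign for miR-148a-3p (-0.0559 with totals, -0.0118 without the 5 most abundant), miR-378a-3p (-0.0649, -0.00787, and -0.26 with covariates) and miR-10a-5p (0.0694 with covariates, 0.0116 with GC correction). Over left-out libraries they ran from -0.11 to 0.15 for miR-148a-3p, -0.0772 to 0.17 for miR-378a-3p, -0.0126 to 0.15 for miR-10b-5p and -0.00929 to 0.15 for miR-92a-3p. Larger fold changes also changed sign with the covariates, which the 2 miRNAs concerned help to form. miR-142a-5p went from -0.66 to 0.00407 and miR-206-3p from 2.27 to -0.31. The cause of the other changes was not tested. In the shallowest library, with 1.99 M counts, levels under 1.48 CPM lay under the floor of 3 counts.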
